A study of Mus musculus with 12 samples.

Results

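Immediate early genes and close regulators, 10 in all, were followed across cultured cells of the mouse subventricular zone: the zinc finger factors Egr1, Egr2, Egr3 and Egr4, the orphan nuclear receptors Nr4a1, Nr4a2 and Nr4a3, the effector Arc, the growth factor induced gene Ier2 and the transcription factor Srf. They were taken by symbol from the 55401 genes of the count table, and all 10 were found. The choice was made with their levels in these libraries known, so their levels and differences are given as a description, with no p-value of their own. The 12 libraries came from primary cells of CD1 mice with no treatment, 4 in each of 3 groups, and the labels trace the replicates to 4 independent litters. Postnatal neural stem cells (NSC) came from pups of postnatal day 0 to 2 and adult NSC from mice of 2 months, and both grew as floating neurospheres for 6 to 7 days in serum-free medium with EGF at 20 ng/mL, FGF at 10 ng/mL, heparin at 2 µg/mL and B27 at 2%. Oligodendrocyte precursor cells (OPC) were made from postnatal neurospheres that were dissociated and plated as a monolayer for 2 days with PDGF-AA and FGF, each at 10 ng/mL, and the same share of B27. OPC and postnatal NSC therefore differed in growth factors, in heparin (named for NSC alone), in culture format, in the replating step and in stated sequencing depth, which cannot be told apart here. Adult and postnatal NSC differed in the age of the mice and in stated depth. In bulk RNA from such cultures, fewer cells expressing a gene and less RNA per cell cannot be told apart.

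Libraries of OPC held 17226501 to 23651396 counts, those of adult NSC 16756231 to 20064043 and those of postnatal NSC 38928989 to 54801726. The labelled cell types were checked against fixed markers, in counts per 1e+06 of the scaled library total (CPM). The 5 OPC markers summed to 4133 to 7130 CPM in OPC, 2020 to 3315 in postnatal NSC and 2100 to 2418 in adult NSC. Their mean log2 CPM was 9.07 to 10.0 in OPC, 8.16 to 8.51 in postnatal NSC and 6.53 to 6.73 in adult NSC. In adult against postnatal NSC Pdgfra, Sox10 and Cspg4 were called lower (log2 fold changes -4.23, -3.46 and -0.76). Olig1 and Olig2 were not called there (-0.10 and 0.24). The part of this difference in the levels of the 10 genes was not tested. The 4 NSC markers summed to 4388 to 7131 CPM in OPC. In postnatal NSC they were at 6044 to 7401 CPM and in adult NSC at 8121 to 8815, so that neither list was absent from any group. In OPC against postnatal NSC the NSC markers split. Sox2 and Fabp7 were called higher (log2 fold changes 0.73 and 0.89) and Nes and Vim lower (-1.04 and -1.71). Of the OPC markers, Pdgfra, Cspg4 and Olig2 were called higher in that comparison (2.64, 1.36 and 0.77). Sox10 and Olig1 were not called in it (0.49 and 0.41). The 8 neuron markers summed to 1261 to 1830 CPM in OPC, 666 to 1009 in postnatal NSC and 662 to 749 in adult NSC, and Slc17a6 was at 0 in OPC and in adult NSC. The 5 endothelial markers summed to 2.13 to 3.55 CPM in OPC, 4.63 to 15.7 in postnatal NSC and 14.5 to 15.1 in adult NSC, and the 6 pericyte or fibroblast markers to 0.817 to 9.34, 9.42 to 15.7 and 4.17 to 7.03 CPM in the same order. Of the endothelial markers, Cldn5 and Cdh5 were at 0 in OPC. The 7 microglia markers summed to at most 1.97 CPM in any library, with Aif1, Cx3cr1 and C1qa at 0 in OPC and adult NSC. P2ry12, the 1 microglia marker that passed the count filter, was called higher in OPC. Its log2 fold change was 2.54 against postnatal NSC and 1.65 against adult NSC, the latter call lost in 7 of 19 alternatives. A pair of libraries stood apart in 13 genes of the G1/S step of the cell cycle. Their mean log2 CPM was 5.22 in replicate 3 of postnatal NSC against 6.35 to 6.79 in the other postnatal NSC. It was 4.78 in replicate 2 of OPC against 6.82 to 7.01 in the other OPC. The same libraries held the extreme levels of many of the 10 genes, and the part of a cell cycle difference in those levels was not tested. Comparisons are therefore also given without them.

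Immediate early genes are transcribed within minutes of a stimulus, without new protein synthesis, and their RNA is short-lived. Growth factor signalling through ERK reaches many of them by way of SRF, which binds the CArG box of the serum response element together with Elk-type ternary complex factors or myocardin-related factors, and calcium or cAMP signalling reaches them by way of CREB, which binds the cAMP response element (CRE). EGR proteins bind GC-rich sites and recruit the NAB corepressors, NR4A receptors bind the NBRE element without a known natural ligand, and in the brain several of these genes serve as markers of neuronal activity.

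The promoters are shown because SRF is one of the 10 genes and because its binding site can be read from sequence. RefSeq promoter windows on GRCm38.p6, from 250 bases before to 50 after a start site, were matched for 6 of the 10 genes (Egr2, Egr4, Nr4a1, Nr4a2, Nr4a3 and Srf) in 10 windows, 5 of them of Egr2. Both strands were searched for the CArG box, for the core of the CRE (TGACG), for the full CRE (TGACGTCA, which contains the core), for the EGR sites GCGTGGGCG and GCGGGGGCG, for the NBRE (AAAGGTCA) and for TATAAA. The stretches below lie before the annotated exons of these starts, those of Egr2 and Nr4a1 being inside the span of the gene ahead of an internal start. Capitals mark the CArG box, the CRE core and GCGGGGGCG, on either strand.
Egr2, chr10:67537619-67537868, plus strand: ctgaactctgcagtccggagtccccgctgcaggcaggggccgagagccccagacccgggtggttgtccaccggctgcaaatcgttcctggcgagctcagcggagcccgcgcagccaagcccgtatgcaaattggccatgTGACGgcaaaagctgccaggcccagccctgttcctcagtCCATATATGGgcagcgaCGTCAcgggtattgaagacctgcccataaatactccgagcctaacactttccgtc
Srf, chr17:46556176-46556412, minus strand: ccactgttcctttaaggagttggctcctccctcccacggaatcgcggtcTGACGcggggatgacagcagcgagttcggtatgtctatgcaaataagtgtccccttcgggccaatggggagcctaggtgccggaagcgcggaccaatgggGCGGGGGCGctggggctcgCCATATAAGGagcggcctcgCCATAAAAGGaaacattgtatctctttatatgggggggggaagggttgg
Egr4, chr6:85513590-85513839, minus strand: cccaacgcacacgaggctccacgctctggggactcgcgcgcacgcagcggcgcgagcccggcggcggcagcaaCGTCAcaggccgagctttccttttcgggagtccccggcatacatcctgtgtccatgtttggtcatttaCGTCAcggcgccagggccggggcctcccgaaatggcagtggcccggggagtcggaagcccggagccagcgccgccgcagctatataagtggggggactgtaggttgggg
Nr4a1, chr15:101266596-101266845, plus strand: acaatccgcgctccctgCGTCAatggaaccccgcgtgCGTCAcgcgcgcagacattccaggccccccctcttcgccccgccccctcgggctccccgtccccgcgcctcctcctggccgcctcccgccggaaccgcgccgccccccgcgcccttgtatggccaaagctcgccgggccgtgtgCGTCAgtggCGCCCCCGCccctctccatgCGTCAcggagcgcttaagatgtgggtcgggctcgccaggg
Nr4a3, chr4:48045055-48045152, plus strand: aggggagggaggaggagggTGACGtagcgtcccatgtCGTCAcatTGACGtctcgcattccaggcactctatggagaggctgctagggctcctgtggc

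A CArG box was present in 1.63% of the 32851 windows of all genes and, among the 6 genes, in 4 of the 5 Egr2 windows and in Srf. Of these 4 Egr2 windows, 3 overlap and share the box shown. The Srf window held a pair of CArG boxes, at positions -82 to -73 and -62 to -53 from the start, and 6 of all windows held at least 2. In the Egr2 window shown the box lies at -72 to -63. The CRE core, present in 20.8% of all windows, occurred in a window of each of the 6 genes, with 4 matches each in Nr4a1, Nr4a2 and Nr4a3. The Nr4a3 match at -147 to -143 lies in an annotated exon of the gene, outside the stretch shown. GCGGGGGCG was found in Nr4a1 and Srf and in 2.91% of all windows. TATAAA was found in Nr4a2 and Srf and in 13.6% of all windows. The full CRE, GCGTGGGCG and the NBRE, present in 1.79%, 0.612% and 1.51% of all windows, had no match in the 10 windows of these genes. Each match is a match of letters and was not measured as a bound site.

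Levels are given below for replicates 1 to 4 of each group in that order, in CPM scaled by TMM. Differences are log2 fold changes from 1 edgeR fit to all 12 libraries. The value after ± on a fold change is an approximate standard error. It is the size of the log2 fold change divided by the square root of its quasi-likelihood F statistic. It rests on the spread of the gene over all groups, also those not compared. Both comparisons with postnatal NSC use the same 4 postnatal libraries.

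Egr1 (chr18:34859823-34864984, plus strand), the best studied growth factor induced zinc finger factor of the family, was at 1889, 1758, 3683 and 1714 CPM in postnatal NSC, at 276, 295, 252 and 289 CPM in adult NSC and at 139.8, 8.24, 127 and 138 CPM in OPC. The 3 groups did not overlap, replicate 3 stood high in postnatal NSC and replicate 2 stood low in OPC. The log2 fold change was -4.45 ± 0.66 in OPC against postnatal NSC, -3.02 ± 0.62 in adult against postnatal NSC and -1.43 ± 0.58 in OPC against adult NSC. As folds, Egr1 was 21.9-fold lower in OPC and 8.13-fold lower in adult NSC than in postnatal NSC.

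Egr2 (chr10:67535475-67542188, plus strand), known as Krox20 and required for hindbrain segments and for myelination by Schwann cells, was at 117, 130.3, 297 and 104 CPM in postnatal NSC, at 11.2, 12.4, 9.74 and 9.07 CPM in adult NSC and at 6.58, 0.204, 9.34 and 8.12 CPM in OPC. Postnatal NSC lay above both other groups in every library. Adult NSC and OPC overlapped, since replicate 3 of OPC was level with the lower adult libraries. Egr2 differed by -4.76 ± 0.67 in OPC against postnatal NSC, by -3.93 ± 0.64 in adult against postnatal NSC and by -0.83 ± 0.62 in OPC against adult NSC, all as log2 fold changes. Only 5 reads of Egr2 were counted in replicate 2 of OPC.

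Egr3 (chr14:70077203-70082614, plus strand), a relative induced by neuronal activity and needed for muscle spindle development, was at 215, 161, 365 and 145 CPM in postnatal NSC, at 28.6, 31.2, 20.9 and 25.5 CPM in adult NSC and at 4.07, 0.0815, 10.7 and 9.03 CPM in OPC. The order postnatal NSC, adult NSC, OPC held without overlap. In OPC, replicate 2 had only 2 reads of Egr3, and replicate 1 lay below replicates 3 and 4. For Egr3 the log2 fold changes were -5.24 ± 0.72, -3.06 ± 0.64 and -2.18 ± 0.65 in OPC against postnatal NSC, adult against postnatal NSC and OPC against adult NSC.

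Egr4 (chr6:85511121-85513589, minus strand), a further zinc finger factor of the family, was at 131, 77.7, 349 and 106 CPM in postnatal NSC, at 8.95, 8.05, 5.52 and 7.90 CPM in adult NSC and at 0.629, 0.0408, 1.38 and 0.721 CPM in OPC. The groups were fully separate, and the OPC libraries rested on 13, 1, 24 and 15 reads against 4269 to 13951 in postnatal NSC. Its log2 fold change of -7.98 ± 0.66 in OPC against postnatal NSC had the largest size among the 10 genes, and it was -4.45 ± 0.52 in adult against postnatal NSC and -3.53 ± 0.64 in OPC against adult NSC. Replicate 3 of postnatal NSC, the highest library, moved these values: without it they were -7.33 for OPC and -3.79 for adult NSC.

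**Figure D1:**
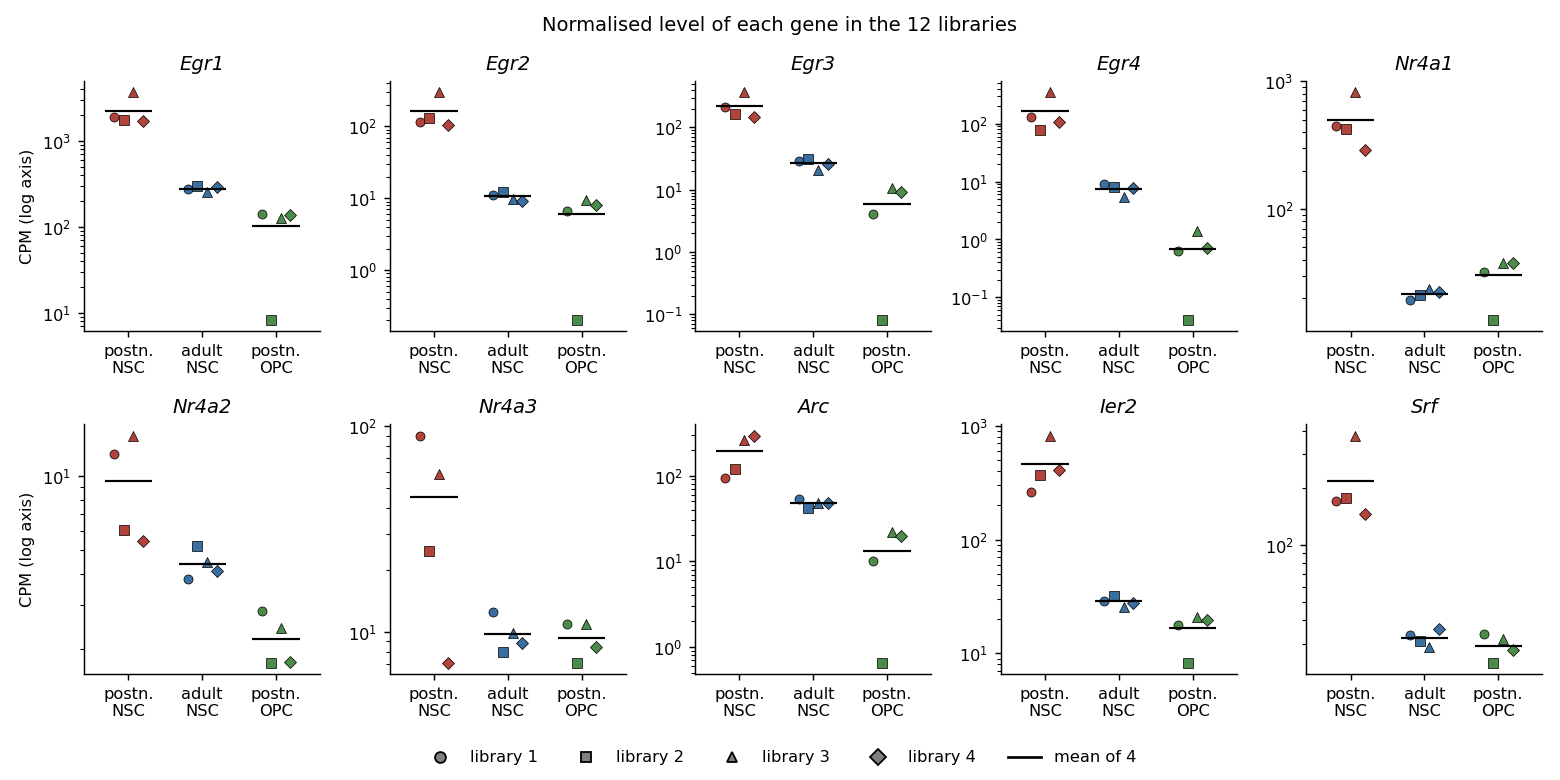
CPM of the 10 genes (log axis) in each of the 12 libraries, grouped as postnatal NSC, adult NSC and OPC, with 1 symbol per library and a horizontal line at the mean of 4. The mean of postnatal NSC is the highest in every panel, and replicate 2 of OPC is the lowest point of its group in all 10 panels.

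Nr4a1 (chr15:101254269-101274795, plus strand), or Nur77, an orphan receptor studied in T cell selection and in metabolism, was at 447, 427, 819 and 290.5 CPM in postnatal NSC, at 19.5, 21.0, 23.5 and 22.3 CPM in adult NSC and at 32.1, 13.5, 37.6 and 38.0 CPM in OPC. Postnatal NSC was apart from both other groups. Here the adult libraries, within a narrow band, lay below 3 of the 4 OPC libraries and above replicate 2 of OPC. The log2 fold change of Nr4a1 was -4.04 ± 0.36 in OPC and -4.52 ± 0.37 in adult NSC, both against postnatal NSC. In OPC against adult NSC it was 0.49 ± 0.33, the only positive value among the 10 genes, and 0.74 without replicate 2 of OPC.

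Nr4a2 (chr2:57106830-57124003, minus strand), or Nurr1, a factor of midbrain dopamine neuron development, was at 12.2, 6.04, 14.5 and 5.47 CPM in postnatal NSC, at 3.82, 5.20, 4.50 and 4.13 CPM in adult NSC and at 2.86, 1.75, 2.42 and 1.78 CPM in OPC. The groups did not overlap, but the lower postnatal libraries, replicates 2 and 4, lay just above the highest adult library. Nr4a2 had the smallest difference from postnatal NSC among the 10 genes, at -1.11 ± 0.31 in adult NSC and -2.12 ± 0.32 in OPC on the log2 scale. Between OPC and adult NSC the log2 fold change was -1.01 ± 0.32.

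Nr4a3 (chr4:48045153-48086447, plus strand), or NOR-1, which together with Nr4a1 restrains leukaemia in mice, was at 90.2, 24.8, 58.3 and 7.06 CPM in postnatal NSC, at 12.6, 7.95, 9.91 and 8.88 CPM in adult NSC and at 11.0, 7.09, 10.9 and 8.41 CPM in OPC. It was the only gene of the 10 whose postnatal NSC overlapped the other groups: replicate 4 of postnatal NSC lay below all adult libraries and below every OPC library, while replicate 1 lay highest. The log2 fold change of Nr4a3 was -2.27 ± 0.56 in OPC and -2.20 ± 0.56 in adult NSC against postnatal NSC. OPC against adult NSC gave -0.075 ± 0.55, within its error of no difference. That error pools the spread of all groups, and postnatal NSC, which is not compared here, had the widest. Its highest library was 12.8 times its lowest, against 1.58 times in adult NSC and 1.55 times in OPC.

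Arc (chr15:74669083-74672570, minus strand), which encodes a synaptic protein that promotes removal of AMPA receptors from the membrane, was at 92.6, 118, 261 and 292 CPM in postnatal NSC, at 52.7, 41.7, 48.1 and 47.7 CPM in adult NSC and at 10.1, 0.652, 22.1 and 19.5 CPM in OPC. The groups did not overlap, and postnatal NSC split into replicates 1 and 2 below and replicates 3 and 4 above. Replicate 2 of OPC, with 16 reads, was far below the other OPC libraries. Arc had log2 fold changes of -3.88 ± 0.69 in OPC against postnatal NSC, -2.01 ± 0.64 in adult against postnatal NSC and -1.87 ± 0.65 in OPC against adult NSC.

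Ier2 (chr8:84661331-84662852, minus strand), a small nuclear protein induced by growth factors, was at 263, 366, 819 and 410.1 CPM in postnatal NSC, at 28.9, 31.9, 25.7 and 28.0 CPM in adult NSC and at 17.7, 8.24, 21.1 and 19.5 CPM in OPC. All 3 groups were apart, with replicate 3 the highest postnatal library and replicate 2 the lowest OPC library. Ier2 differed by -4.81 ± 0.38 in OPC and by -4.02 ± 0.37 in adult NSC from postnatal NSC, and by -0.79 ± 0.34 between OPC and adult NSC, as log2 fold changes.

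Srf (chr17:46548329-46556175, minus strand), the CArG box factor whose window carries the pair of CArG boxes shown above, was at 171, 177, 377 and 145 CPM in postnatal NSC, at 33.3, 31.2, 28.8 and 35.9 CPM in adult NSC and at 33.7, 23.7, 31.8 and 28.0 CPM in OPC. Postnatal NSC was apart from both other groups, which overlapped. Srf was 7.42-fold lower in OPC and 6.73-fold lower in adult NSC than in postnatal NSC, with log2 fold changes of -2.89 ± 0.27 and -2.75 ± 0.27. OPC against adult NSC gave -0.14 ± 0.26. The gene span of Srf overlaps Gm26904 on the other strand and Mir6976 on its own, with 0 shared exon bases.

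**Figure D2:**
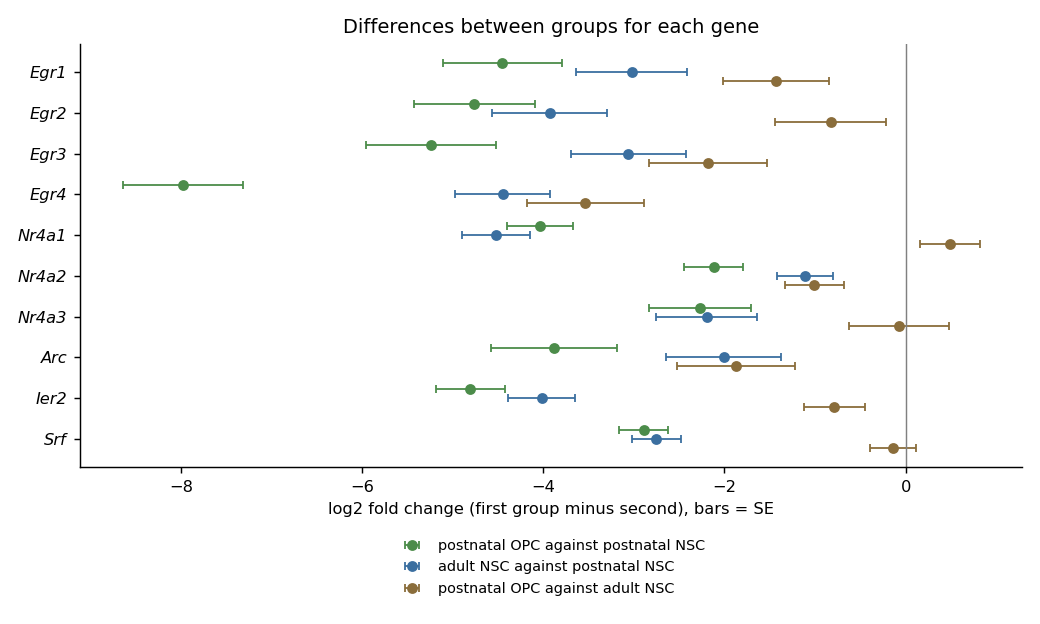
Log2 fold changes of the 10 genes with approximate standard errors in the 3 comparisons, 4 libraries a group. In both comparisons with postnatal NSC every value is below 0, from -7.98 for Egr4 to -1.11 for Nr4a2, and in OPC against adult NSC they run from -3.53 for Egr4 to 0.49 for Nr4a1.

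By the edgeR quasi-likelihood test at an adjusted p under 0.05, 10 of the 10 genes were called lower in OPC than in postnatal NSC, where 22.7% of the 16135 genes tested were called lower and 22.4% higher. In adult against postnatal NSC 10 of 10 were called lower, with 27.9% of all genes called lower and 25.2% higher. In each of these comparisons 9 of the 10 genes had no overlap between groups, all with postnatal NSC above. Over all genes, postnatal NSC lay above OPC in every library for 16.9% and below for 18.0%, and above adult NSC for 26.0% and below for 27.2%. The genes were chosen with these contrasts in view, and nothing is read from the counts. The median log2 fold change of the 10 genes was -4.24 in OPC and -3.04 in adult NSC against postnatal NSC, beside -0.0083 and -0.025 over all genes tested.

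OPC against adult NSC, the comparison without postnatal NSC, divided the genes. Egr3, Egr4, Nr4a2 and Arc were called lower in OPC and 6 genes were not called in either direction, where 24.7% of all genes were called lower and 26.3% higher. In 6 genes (Egr1, Egr3, Egr4, Nr4a2, Arc and Ier2) all OPC libraries lay below all adult libraries, against 28.7% of all genes, and the reverse held for none of the 10 and for 27.9% of all genes. The calls of Nr4a2 and Arc were lost with the loss of single libraries. Nr4a2 was no longer called without replicate 2 of adult NSC (-0.92), without replicate 2 of OPC (-0.90) or without replicate 4 of OPC (-0.92). Arc was no longer called without replicate 1, 3 or 4 of adult NSC (-1.82, -1.87 and -1.88) or without replicate 1 of OPC (-1.76). Without replicate 2 of OPC, Egr1 was called lower at -1.04 and Nr4a1 higher. Egr1 was also called without replicate 3 of postnatal NSC (-1.43), and Ier2 without replicate 1 or 3 of postnatal NSC (-0.78 and -0.79). Those postnatal libraries belong to neither group compared here. They still enter the error of this comparison, since the fit takes the spread of each gene from all libraries. The part of this in the gained calls was not tested. Ier2 was also called by DESeq2 (-0.78) and in the fit to these 2 groups alone (-0.78), and Egr1 with no filter on low counts (-1.43). In adult against postnatal NSC, the call of Arc was lost without replicate 2 of adult NSC, at -1.94.

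With the pair of libraries low in G1/S genes left out, all 10 genes were again called lower in both comparisons with postnatal NSC, at smaller differences. In OPC against postnatal NSC the log2 fold change was then -3.73 for Egr1, -3.88 for Egr2, -4.47 for Egr3 and -6.88 for Egr4. It was -3.44 for Nr4a1, -3.29 for Arc and -4.16 for Ier2. These 7 genes moved by over 1.5-fold.

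In RPKM, which divides CPM by the length of the merged exons in kilobases, the levels of different genes can be set side by side. In postnatal NSC Egr1 had the highest mean level, at 504 ± 212 RPKM (SD, n = 4), followed by Ier2 at 305 ± 160.4 and Nr4a1 at 141 ± 64.5. The gaps from Egr1 to Ier2 and from Nr4a1 to Egr4 were within the larger SD of each pair. Egr4, Srf, Arc, Egr3 and Egr2 came next, from 77.3 ± 57.8 down to 47.7 ± 26.7 RPKM, and no neighbours among these 5 differed by more than their SD. Nr4a3 and Nr4a2 were lowest, at 7.53 ± 6.15 and 2.36 ± 1.11 RPKM. In adult NSC the order began with Egr1 (62.0 ± 4.28), Ier2 (18.8 ± 1.67), Arc (15.6 ± 1.47) and Srf (11.2 ± 1.04), and each of these gaps was larger than the SD. Nr4a1 and Egr3 did not differ beyond their SD in adult NSC, nor did Egr4 and Egr2. In OPC the first 4 places went to Egr1 (23.0 ± 14.2), Ier2 (10.9 ± 3.79), Srf (10.1 ± 1.53) and Nr4a1 (8.63 ± 3.27), with neighbours among these 4 within the SD of each other. Nr4a1 was above Arc, the next, at 4.28 ± 3.19 RPKM, by more than either SD. Egr4, the fourth in postnatal NSC, was last in OPC at 0.323 ± 0.256 RPKM, within the SD of Nr4a2 at 0.542 ± 0.132.

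Shares within each family, in RPKM, differed between the groups. Egr1 held 75.2% ± 3.06 (SD) of the summed RPKM of the 4 EGR genes in postnatal NSC, 83.1% ± 1.55 in adult NSC and 88.8% ± 5.21 in OPC. Egr4 held 10.5% ± 2.84, 4.71% ± 0.672 and 1.17% ± 0.483 in the same order, and the ranges of its share did not overlap between groups. Among the NR4A genes, Nr4a1 held 93.7% ± 4.21 of the summed RPKM in postnatal NSC, 69.2% ± 3.17 in adult NSC and 78.9% ± 6.37 in OPC. The share of Nr4a3 was 4.74% ± 3.90 in postnatal NSC, 18.5% ± 4.02 in adult NSC and 15.6% ± 4.47 in OPC, with the lowest non-postnatal library above the highest postnatal one. Nr4a2 held 1.57% ± 0.377, 12.3% ± 1.77 and 5.48% ± 1.92. These shares follow from the levels the genes were chosen on and have no test.

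**Figure D3:**
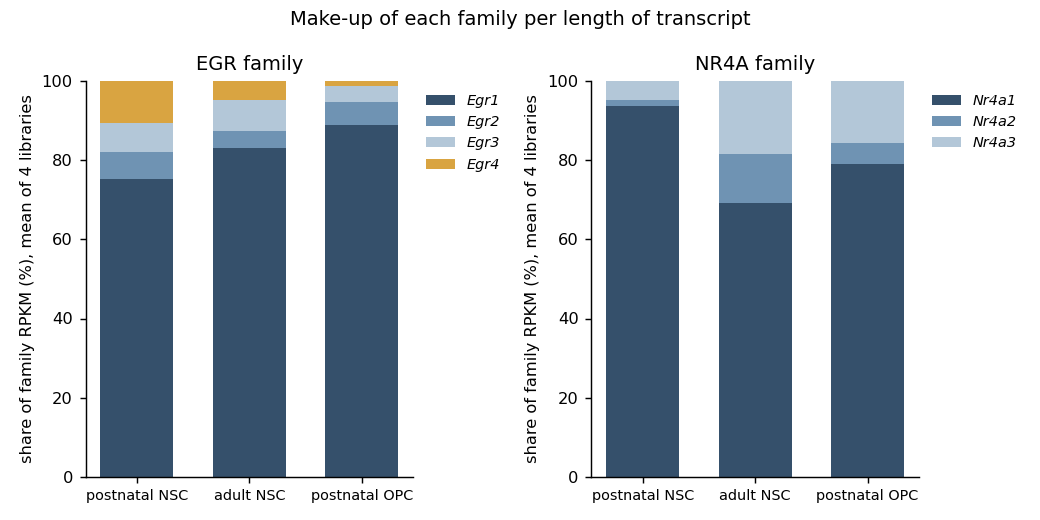
Share of each gene in the summed RPKM of its family (percent, mean of n = 4, drawn without error bars) for the EGR genes and the NR4A genes in the 3 groups. Egr1 and Nr4a1 make up most of each family in every group, and the share of Egr4 is largest in postnatal NSC at 10.5% ± 2.84 (SD, not drawn).

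Within groups, the same libraries were often the extreme ones. Replicate 3 of postnatal NSC was the highest library of its group for 8 of the 10 genes, the exceptions being Nr4a3 (replicate 1) and Arc (replicate 4). It was 2.06 times the mean of the other postnatal libraries for Egr1, 3.33 times for Egr4 and 2.30 times for Srf. Replicate 4 of postnatal NSC was the lowest for 7 genes, by the widest margin for Nr4a3, where the mean of the others was 8.18 times its level. Replicate 2 of OPC was the lowest for all 10 genes. The mean of the other OPC libraries was 16.4 times its level for Egr1 and 26.4 times for Arc, but 1.42 times for Nr4a3, 1.34 times for Nr4a2 and 1.31 times for Srf. That library also held the lowest mean log2 CPM of 11 ERK feedback inhibitors and ETV factors in its group, at 4.38 against 5.48 to 5.94. Its OPC markers were the highest, at a mean log2 CPM of 10.0 against 9.07 to 9.31. The part of either in the low levels was not tested. Replicate 3 of postnatal NSC, high in the 10 genes, did not hold the highest feedback inhibitors of its group (5.61, against 5.49 to 6.26 in the others). In adult NSC the highest library was 1.17 times the lowest for Egr1 and 1.62 times for Egr4, the narrowest and the widest spread of the 10 genes in that group.

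**Figure D4:**
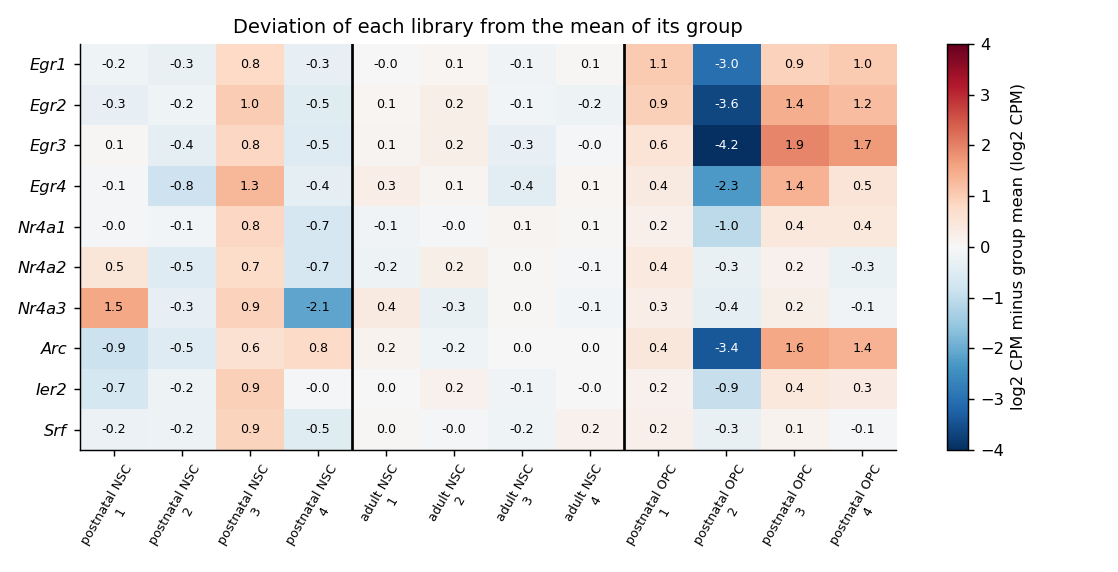
Deviation of each library from its group mean (log2 CPM) for the 10 genes, as a colour scale with the value printed in each cell, by group and replicate. Replicate 3 of postnatal NSC is the highest library of its group for 8 genes, and replicate 2 of OPC is the lowest for all 10.

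The other genes of the pathway came from lists chosen for their known roles, with p-values from the same edgeR quasi-likelihood test adjusted over all 16135 genes. The lists, too, were chosen with earlier results of these libraries known, so their calls and p-values are given as a description of each gene and support nothing about a list. Among the SRF cofactors, Mrtfb, a myocardin-related coactivator released by actin assembly, was at 45.8 ± 12.5 CPM (SD) in postnatal NSC, 81.5 ± 5.48 in adult NSC and 21.1 ± 4.33 in OPC. It fell in OPC against postnatal NSC (log2 fold change -1.12 ± 0.20, adjusted p = 6.70e-04 by edgeR) and rose in adult against postnatal NSC (0.83 ± 0.19, adjusted p = 0.00340 by edgeR), so that it moved against Srf in adult NSC. Elk3, a ternary complex factor that can repress, rose in adult against postnatal NSC (1.54 ± 0.23, adjusted p = 2.64e-04 by edgeR) and was lower in OPC than in adult NSC (-2.23 ± 0.24, adjusted p = 1.32e-05 by edgeR). In OPC against postnatal NSC Elk3 was called lower (-0.70 ± 0.23, adjusted p = 0.0275 by edgeR), a call lost in the fit to these 2 groups alone and without replicate 4 of postnatal NSC, where it was -0.53. Elk1, the best known ternary complex factor, fell in adult NSC (-0.40 ± 0.12, adjusted p = 0.0132 by edgeR) and was not called in OPC against postnatal NSC (-0.26 ± 0.12, adjusted p = 0.0915 by edgeR). Elk4, another ternary complex factor, rose in adult against postnatal NSC (0.31 ± 0.083, adjusted p = 0.00798 by edgeR), and Mrtfa, the other myocardin-related coactivator, was lower in OPC than in adult NSC (-0.40 ± 0.13, adjusted p = 0.0239 by edgeR). The call of Elk4 was lost without replicate 2 of postnatal NSC (0.24), and that of Mrtfa without replicate 4 of adult NSC (-0.37) or replicate 1, 3 or 4 of OPC (-0.37, -0.37 and -0.34). Neither was called in the other comparisons of all 12 libraries, and Myocd was at 0 in postnatal NSC and OPC.

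The 5 partners of the EGR and NR4A factors differed from each other in direction. Nab2, a corepressor that EGR factors induce, was at 85.3 ± 43.5 CPM in postnatal NSC, 131 ± 2.03 in adult NSC and 90.7 ± 51.1 in OPC, and was not called in any of the 3 comparisons (0.087 ± 0.50, adjusted p = 0.903 in OPC and 0.62 ± 0.50, adjusted p = 0.314 in adult against postnatal NSC, by edgeR). Nab1 was not called in OPC against postnatal NSC (0.12 ± 0.28, adjusted p = 0.752 by edgeR). It was called higher in adult NSC (0.81 ± 0.28, adjusted p = 0.0276 by edgeR), a call lost without replicate 2 or 3 of postnatal NSC (0.68 and 0.64) or replicate 1 or 3 of adult NSC (0.80 and 0.78). Rxra, a retinoid receptor, was lower in OPC than in postnatal NSC (-0.46 ± 0.076, adjusted p = 4.21e-04 by edgeR). It was also called lower in OPC against adult NSC (-0.74). In adult against postnatal NSC Rxra was called higher (0.28), a call lost with no filter on low counts. Rxrb, which can pair with Nr4a1 and Nr4a2, fell in adult against postnatal NSC (-0.75 ± 0.19, adjusted p = 0.00588 by edgeR). Rxrg was under 5 CPM on average in every group, at 2.83 ± 3.26, 0.0407 ± 0.0272 and 0.397 ± 0.373 CPM in postnatal NSC, adult NSC and OPC. It was called lower against postnatal NSC in OPC (-2.80) and in adult NSC (-5.93). The call in OPC was lost in 5 of 19 alternatives.

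Among 8 genes of CREB and its coactivators, 3 rose and 3 fell in adult against postnatal NSC, with a median log2 fold change of 0.018 beside -0.025 for all genes. Of all genes 25.2% were called higher and 27.9% lower there. Creb1, the CRE-binding factor itself, was higher in OPC (0.79 ± 0.079, adjusted p = 1.63e-05) and in adult NSC (0.82 ± 0.079, adjusted p = 1.46e-05) than in postnatal NSC by edgeR. Crem, whose short form is a cAMP-induced repressor, rose in adult against postnatal NSC (1.35 ± 0.15, adjusted p = 3.91e-05 by edgeR) and fell in OPC against adult NSC (-1.86 ± 0.16, adjusted p = 1.80e-06 by edgeR). Crtc1, a CREB coactivator, fell in adult against postnatal NSC (-0.86 ± 0.15, adjusted p = 5.03e-04 by edgeR). Its relatives Crtc2 and Crtc3 fell in OPC by 0.54 and 0.52 against postnatal NSC on the log2 scale. The list had 2 higher and 3 lower calls in that comparison, against 22.4% and 22.7% of all genes, and one of the higher calls, Atf1, was lost in 12 of 19 alternatives.

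Of 12 kinases of the ERK pathway, 4 rose and 5 fell in OPC against postnatal NSC, and 3 rose and 3 fell in adult against postnatal NSC, with medians of -0.29 and 0.11. Over all genes 22.4% rose and 22.7% fell in OPC, and 25.2% rose and 27.9% fell in adult NSC, so the adult counts of the kinases were near those of all genes. Rps6ka1, an ERK-activated kinase that phosphorylates SRF and CREB, fell in OPC (-1.78 ± 0.32, adjusted p = 7.67e-04 by edgeR) and rose in adult NSC (1.14 ± 0.30, adjusted p = 0.00745 by edgeR). Rps6ka3, a kinase of the same family, rose in both (0.57 ± 0.14, adjusted p = 0.00558 in OPC and 1.26 ± 0.14, adjusted p = 3.67e-05 in adult NSC, by edgeR). Mapk3, which is ERK1, fell in OPC (-0.68 ± 0.10, adjusted p = 2.11e-04 by edgeR) and was not called in adult NSC (0.15 ± 0.10, adjusted p = 0.226 by edgeR).

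Calls went in both directions among the feedback inhibitors of ERK signalling. Of the 11 ERK feedback inhibitors and ETV factors, 1 was called higher and 2 lower in OPC against postnatal NSC, and 3 higher and 1 lower in adult NSC. The shares of all genes called were 22.4% higher and 22.7% lower in OPC, and 25.2% and 27.9% in adult NSC. Without replicate 4 of postnatal NSC the higher calls in OPC were 3, and without replicate 1 or 3 of postnatal NSC or replicate 1 of OPC the lower calls were 1. The 3 higher calls in adult NSC were 2 without replicate 2 of postnatal NSC, any single adult library or replicate 1 of OPC. They were 4 without replicate 2 of OPC. Etv5 (0.83) lost its higher call in adult NSC in 7 of 19 alternatives. Dusp5, a nuclear ERK phosphatase, was at 51.6 ± 28.6 CPM in postnatal NSC, 8.75 ± 0.733 in adult NSC and 2.74 ± 1.64 in OPC. It fell in both comparisons (-4.26 ± 0.48, adjusted p = 3.24e-05 in OPC and -2.56 ± 0.43, adjusted p = 5.03e-04 in adult NSC, by edgeR), and ranged over -4.55 to -3.54 in OPC across 19 alternatives. Spred1, an inhibitor of Ras activation, rose in both (1.35 ± 0.17, adjusted p = 8.64e-05 in OPC and 0.89 ± 0.17, adjusted p = 0.00115 in adult NSC, by edgeR). Its relative Spred2 rose in adult NSC (1.14 ± 0.27, adjusted p = 0.00391 by edgeR).

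Other immediate early genes were mostly lower outside postnatal NSC. Of 26, 20 fell and 1 rose in OPC against postnatal NSC (median -3.36), and 17 fell and 2 rose in adult NSC (median -1.77). Over all genes 22.7% fell and 22.4% rose in OPC, and 27.9% fell and 25.2% rose in adult NSC. The list overlaps in kind with the genes chosen, and was picked with these results known, so nothing is read from its counts. Fosb, an AP-1 subunit, was at 1274 ± 872 CPM in postnatal NSC, 1.06 ± 0.285 in adult NSC and 0.291 ± 0.133 in OPC. Atf3, a stress-induced factor, was at 71.9 ± 61.8, 3.45 ± 0.321 and 0.187 ± 0.0732 CPM in that order. Junb, also of AP-1, was at 315 ± 167, 9.95 ± 1.62 and 2.80 ± 0.865 CPM in the same order. Homer1, a synaptic scaffold, went the other way, rising in OPC (0.56 ± 0.15, adjusted p = 0.00815 by edgeR) and in adult NSC (0.59 ± 0.15, adjusted p = 0.00503 by edgeR). The counts are per gene, so the rise of Homer1 cannot be assigned to a given transcript of it. Myc, the other gene called higher in adult NSC, lost that call in several leave-one-out fits, so that 1 rise was left without replicate 2, 3 or 4 of postnatal NSC, any single adult library or replicate 1 of OPC. The 17 lower calls in adult against postnatal NSC were 14 or 15 without replicate 3 of postnatal NSC or any single adult library. In OPC against adult NSC 15 of the 26 fell and 0 rose (median -1.27), against 24.7% and 26.3% of all genes. Those 15 lower calls were 11 to 14 without any single adult or OPC library, and Fosb lost its call in 9 of 19 alternatives of that comparison. Ier3 and Ier5l fell there (-3.84 ± 0.43, adjusted p = 1.81e-05 and -3.08 ± 0.26, adjusted p = 2.05e-06 by edgeR) but were not called in adult against postnatal NSC (0.21 ± 0.36, adjusted p = 0.645 and 0.00011 ± 0.23, adjusted p = 1.00 by edgeR).

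Cytoskeletal targets of SRF were counted in the same way, with no test between comparisons. Of 16 tested, 12 fell and 1 rose in OPC against postnatal NSC (median -1.33), while 5 fell and 3 rose in adult against postnatal NSC (median -0.067). Of all genes 22.7% fell and 22.4% rose in the first comparison and 27.9% fell and 25.2% rose in the second. The 5 lower calls were 3 without replicate 2 or 3 of postnatal NSC and 8 without replicate 2 of OPC. Smooth muscle actin Acta2 was at 46.7 ± 11.5 CPM in postnatal NSC, 24.2 ± 9.98 in adult NSC and 2.31 ± 1.40 in OPC, and fell in OPC against postnatal NSC (-4.36 ± 0.52, adjusted p = 4.80e-05 by edgeR) and against adult NSC (-3.41 ± 0.50, adjusted p = 1.51e-04 by edgeR). The secreted matrix protein gene Ccn1 was at 536 ± 322, 12.2 ± 1.77 and 13.1 ± 5.37 CPM, and fell in both comparisons with postnatal NSC (-5.35 ± 0.41, adjusted p = 3.08e-06 in OPC and -5.46 ± 0.42, adjusted p = 2.45e-06 in adult NSC, by edgeR). Zyx, a focal adhesion protein, fell in OPC (-1.01 ± 0.14, adjusted p = 1.34e-04 by edgeR) and rose in adult NSC (0.54 ± 0.14, adjusted p = 0.00618 by edgeR) against postnatal NSC. Tagln2, an actin-binding protein, rose in adult NSC (1.86 ± 0.60, adjusted p = 0.0209 by edgeR). Markers of vessel and connective tissue cells, some of which also express such targets, moved as well. The endothelial marker Flt1 fell in OPC against postnatal NSC (-4.66 ± 0.86, adjusted p = 9.38e-04 by edgeR), as did the fibroblast collagens Col1a1 (-4.79 ± 0.38, adjusted p = 3.84e-06 by edgeR) and Col1a2 (-3.55 ± 0.69, adjusted p = 0.00138 by edgeR), and Col1a1 also fell in adult NSC (-1.18 ± 0.30, adjusted p = 0.00625 by edgeR). Of the 11 endothelial, pericyte or fibroblast markers 5 passed the count filter, and the other 2 of these, Kdr and Pdgfrb, were not called in either comparison. The part of such cells in the levels of the SRF targets was not tested. The median of all genes was -0.0083 in the OPC comparison and -0.025 in the adult one. Heat shock genes, another set induced by stimuli, gave 1 rise and 6 falls among 11 in OPC (median -0.28) and 6 rises and 3 falls in adult NSC (median 0.50), both against postnatal NSC, where the shares of all genes are those given above. Hsph1 (-0.28) lost its lower call in OPC in 11 of 19 alternatives, and Hspa1b (-1.57) lost that in adult NSC in 6 of 19. The inducible chaperone Hspa1a fell in both (-2.70 ± 0.48, adjusted p = 7.27e-04 in OPC and -1.79 ± 0.46, adjusted p = 0.00610 in adult NSC, by edgeR), while the mitochondrial chaperone Hspd1 and the cytosolic Hsp90aa1 rose in adult NSC (1.03 ± 0.24, adjusted p = 0.00318 and 0.91 ± 0.13, adjusted p = 1.97e-04 by edgeR).

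**Figure D5:**
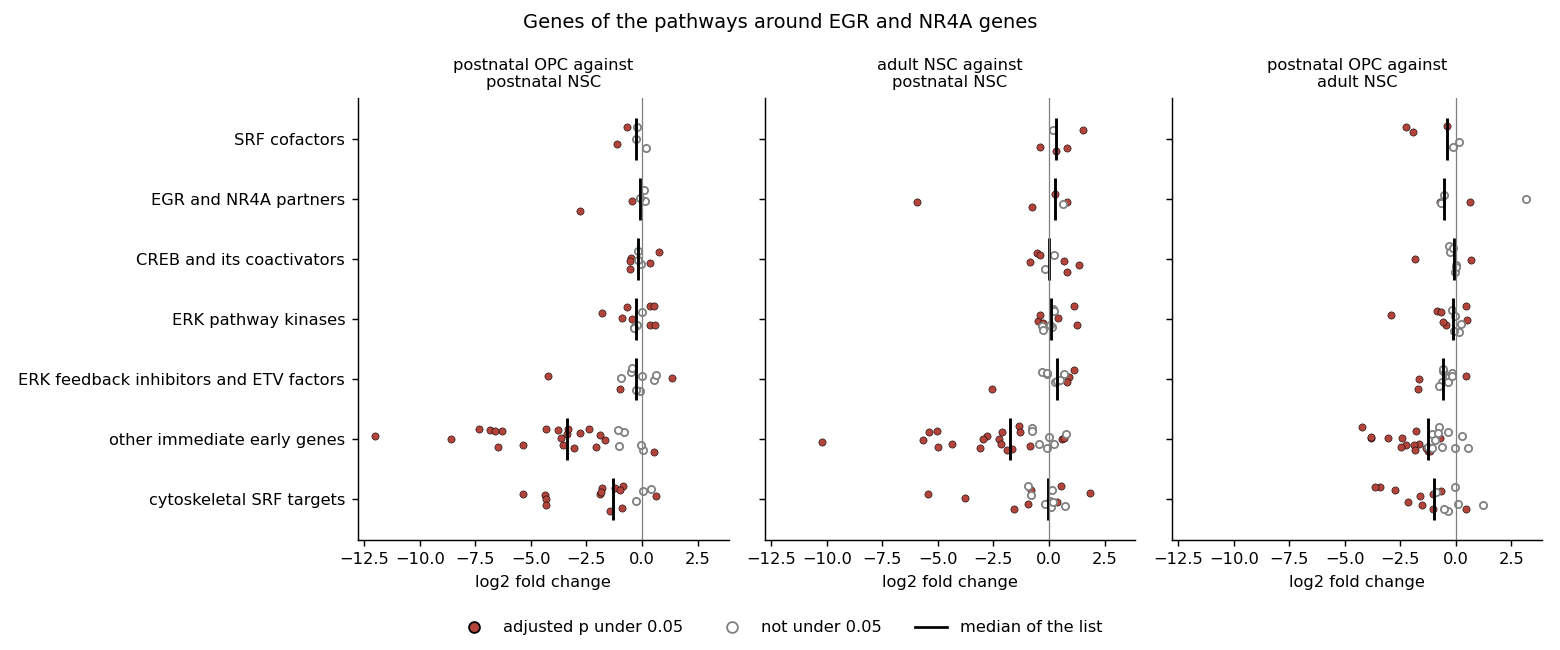
Log2 fold changes of the genes of each pathway list in the 3 comparisons, 1 point per gene, filled where the adjusted p was under 0.05, with a line at the list median. Other immediate early genes have medians of -3.36 in OPC and -1.77 in adult against postnatal NSC, while the CREB list has -0.18 and 0.018.

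The genes most like the 10 in their pattern were ranked by the Pearson correlation of log2 CPM with the mean standardised profile of the 10 genes, over 12 libraries and 16135 genes. They were Mapkapk2 (r = 0.986), Ppfibp2 (0.977), Dusp5 (0.976), Fos (0.976), Crip1 (0.975), Prdx6 (0.975), Plk3 (0.975) and Foxj1 (0.973). Fos, the AP-1 subunit, was at 1408 ± 840.4 CPM in postnatal NSC, 27.2 ± 3.19 in adult NSC and 8.64 ± 4.50 in OPC. Mapkapk2, a kinase downstream of p38, followed the pattern over a far narrower range, from 156 ± 6.53 CPM to 114 ± 3.02 and 103 ± 8.71. After the group means were subtracted, so that only differences among replicates counted, the ranking was Gna13 (r = 0.985), Gpx8 (0.961), Slc16a6 (0.955), Odc1 (0.953), Mlf1 (0.953), Robo2 (0.951), Pim1 (0.951) and Nuak2 (0.944). No gene was in both rankings. All points share the same libraries, in which the extreme levels of the 10 genes fall in replicate 3 of postnatal NSC and replicate 2 of OPC, so the correlations describe these libraries and have no p-value. Among the 10 genes, Nr4a3 correlated least with the mean profile of the 10 in both measures, at 0.766 over the libraries and 0.490 within groups.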

How the data were processed

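RNA-seq counts per gene, as deposited by the authors with no normalization, were analysed in 12 libraries, made with a strand-marking poly(A) kit per the labels. The submitters' processing notes name GRCm38, featureCounts 1.22.2, STAR and FastQC, and the annotation release and strand setting are not given in the sources used here. Of 55401 identifiers, 55141 were found in GENCODE M21, which gave symbols and coordinates. In R 4.3.3, edgeR 4.0.16 kept 16135 genes (filterByExpr, minimum count 10, minimum total 15), scaled them by TMM and fitted 1 term per group to all 12 libraries (biological coefficient of variation 22.6%). Tests were two-sided, adjusted by Benjamini-Hochberg and called at an adjusted p under 0.05, and all 10 chosen genes passed the filter. RPKM used merged exon lengths, and log2 CPM used a prior count of 2.

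Members and lists were chosen with earlier results of these data known. Named were the 10 genes, genes of lists of up to 6, examples from the 4 called genes with the largest changes per list and direction (5 CPM or more in the higher group), and 8 genes per likeness ranking. Not every such example is named, and a gene among them is not reported here. Alternatives were median-ratio scaling, DESeq2 1.42.0, no filter, 2-group fits, a replicate block, thinning to 16756231 counts and leaving out each library. Leaving out both libraries low in G1/S genes was chosen after seeing the data. The labels do not say whether a replicate number marks the same litter across groups, and the numbers were not taken as pairing the samples. No library was a copy of another within sampling noise. On simulated counts, 3 runs with different seeds per comparison found 61.3% to 71.2% of genes changed 2-fold and 83.6% to 87.9% of those changed 4-fold in OPC against postnatal NSC (15881 to 15895 genes), with 0.787% to 9.40% of calls false. The same ranges were 46.0% to 70.1%, 82.4% to 87.7% and 2.99% to 8.47% in adult against postnatal NSC (15876 to 15880 genes), and 48.6% to 72.9%, 78.3% to 82.0% and 0.917% to 3.54% in OPC against adult NSC (15892 to 15909 genes). Of genes changed 1.5-fold, 11.3% to 40.3% were found. The simulated runs changed few genes and gave 97 to 134 calls each. The data gave 3614 higher and 3662 lower calls in OPC against postnatal NSC. The adjusted p depends on that share, so these rates describe the simulation and are not rates for the data.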

Additional observations from a re-analysis of the deposited data

Results flagged for a closer look

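In 4 of 30 gene and group combinations, 1 library lay far from the other 3 by Dixon's criterion, in which the gap to the nearest library is divided by the whole range of the group. For independent, normally distributed values the criterion flags about 1 in 20 groups. The genes here vary together in the same libraries, so the 4 are not set against that rate. Egr1 in postnatal NSC had a gap of 0.911 of its range, with replicate 3 at 3683 CPM and the others at 1714 to 1889. In Egr2 the gap was 0.864, with replicate 3 of postnatal NSC at 297 CPM and the others at 104 to 130.3. For Srf it was 0.863, with replicate 3 of postnatal NSC at 377 CPM and the others at 145 to 177. Egr1 in OPC had a gap of 0.903, with replicate 2 at 8.24 CPM and the others at 127 to 139.8.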

How the results depend on the processing

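Of 190 values of the 10 genes over 19 alternatives in OPC against postnatal NSC, 190 kept their direction and call, as did 189 of 190 in adult against postnatal NSC. The exception was Arc without replicate 2 of adult NSC, which left 9 genes called lower. In OPC against adult NSC 166 of 190 did, 7 lost a call, 14 gained one and 3 changed sign. The sign changes were of Nr4a3, at 0.062 without replicate 1 of adult NSC, 0.046 without replicate 2 of OPC and 0.043 without both libraries low in G1/S genes, and with 1 library left out its value ran from -0.17 to 0.062. In that comparison 1 of the 10 genes was called higher and 7 lower without both libraries, against 0 and 4. Leaving out 1 library at a time gave 0 to 1 higher and 3 to 6 lower. The pathway lists had 14 genes called higher in OPC against postnatal NSC without both libraries, against 9, and 7 to 10 with 1 library left out. The cause of these changes was not tested.

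With replicate number as a block, 10, 10 and 6 of the 10 genes were called lower in the 3 comparisons, against 10, 10 and 4. Egr1 and Ier2 gained the call in OPC against adult NSC. The lower calls over all genes were 3388, 4147 and 3859, against 3662, 4504 and 3992. Same-numbered libraries of different groups correlated from -0.48 to 0.46 in their deviations, with 4 of 12 pairs over 0.1 and 3 of 12 best matched by their own number, so the numbers are not taken as pairing the samples. Egr4 in OPC rests on 1 to 24 reads a library, and Egr3 in replicate 2 of OPC on 2, so that their folds are imprecise.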
